A study of Mus musculus with 67 samples.

Results

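On the mouse 17K-B cDNA filter, a search by symbol found 21 genes of ion channels, their auxiliary subunits, neurotransmitter receptors or other G protein-coupled receptors, or that share their symbols. Members were taken by symbol: a feature (a spotted cDNA) belonged to the set when its only gene symbol began with the root of a channel or receptor family, such as Kcn, Scn, Clcn, Gria, Grik, Grin, Gabr, Chrm, Htr, Drd, Ador, Gpr or Trp. The rule found 23 features of 8448, and 21 genes of the 4209 genes that had a symbol of their own. Features with several symbols or none could not be members, and the filter has fewer features than the study reports genes. The rule reads symbols alone. Among the symbols used here it found no dopamine, adenosine, muscarinic, serotonin or metabotropic glutamate receptor and no voltage-gated calcium channel. Of 46 listed symbols of channels and receptors known from striatal physiology, some of them aliases (Drd1 and Drd1a), 1 was found, the potassium channel Kcnd2.

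The striatum of C57BL/6 mice was profiled with 1 filter per mouse in 67 mice, to ask how age, sex and dietary energy shape its transcriptome. Mice were fed ad libitum (AL) or placed on caloric restriction (CR), in which full feed until 13 weeks of age was followed by fortified feed at 90%, then 75% and finally 60% of that amount. Young mice were 169 to 194 days old (10 AL, 9 CR), middle-aged mice 472 to 499 days (10 AL, 10 CR) and old mice 673 to 743 days (10 AL, 8 CR). Another 10 mice, all on AL, were juveniles aged 17 to 44 days. Each group held 5 males and 5 females, except young CR with 4 males and old CR with 3. The 3 old CR males were 673 days old and the 5 old AL males 714 to 743 days, so diet and age cannot be told apart in old males. Values are Z scores: the authors centred and scaled every array over its 8448 features, so a score of 0 is the array's average and 1 unit is its SD. Scores of different cDNAs were not set against each other, and differences are given in Z units. A fold change cannot be derived from them.

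Potassium channels set the resting potential and the repolarisation of neurons, and in the spiny projection neurons of the striatum inwardly rectifying and A-type currents hold the cell in a quiet state between bursts of cortical input. Sodium channels carry the action potential. Ionotropic GABA and glutamate receptors carry fast synaptic current, and G protein-coupled receptors act on these channels through second messengers. Pore-forming subunits make the conductance, while auxiliary subunits change its gating, its trafficking or its calcium sensitivity.

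For 2 old AL mice, replicate 5 of the males and replicate 5 of the females, the scores ran in the opposite order to the rest and were turned end to end. In addition, 8 of the 67 arrays had a low median score and a profile of their own: 1 juvenile, 2 young, 1 middle-aged and 1 old mouse on AL, and 1 mouse of each adult age on CR. Results are given with and without these 8 arrays. Of 7 striatal neuron markers on the array, 6 had a mean adult score above 0. So did 5 of 7 astrocyte markers and 3904 of all 7782 rows, so such a score does not identify a cell type. Actn2 had a mean adult score of 0.531. Ppp1r1b, which codes for the dopamine-regulated phosphoprotein of spiny neurons, had 0.509. Arpp19 (0.0330) and Strn (0.0366) lay near the array average and Foxp1 (-0.136) below it. Listed markers of cortical neurons, interneurons, endothelium and choroid plexus matched no symbol used here, so an admixture of those cells could not be measured. In whole striatum, fewer cells of a type and less RNA per cell cannot be told apart.

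**Figure D1:**
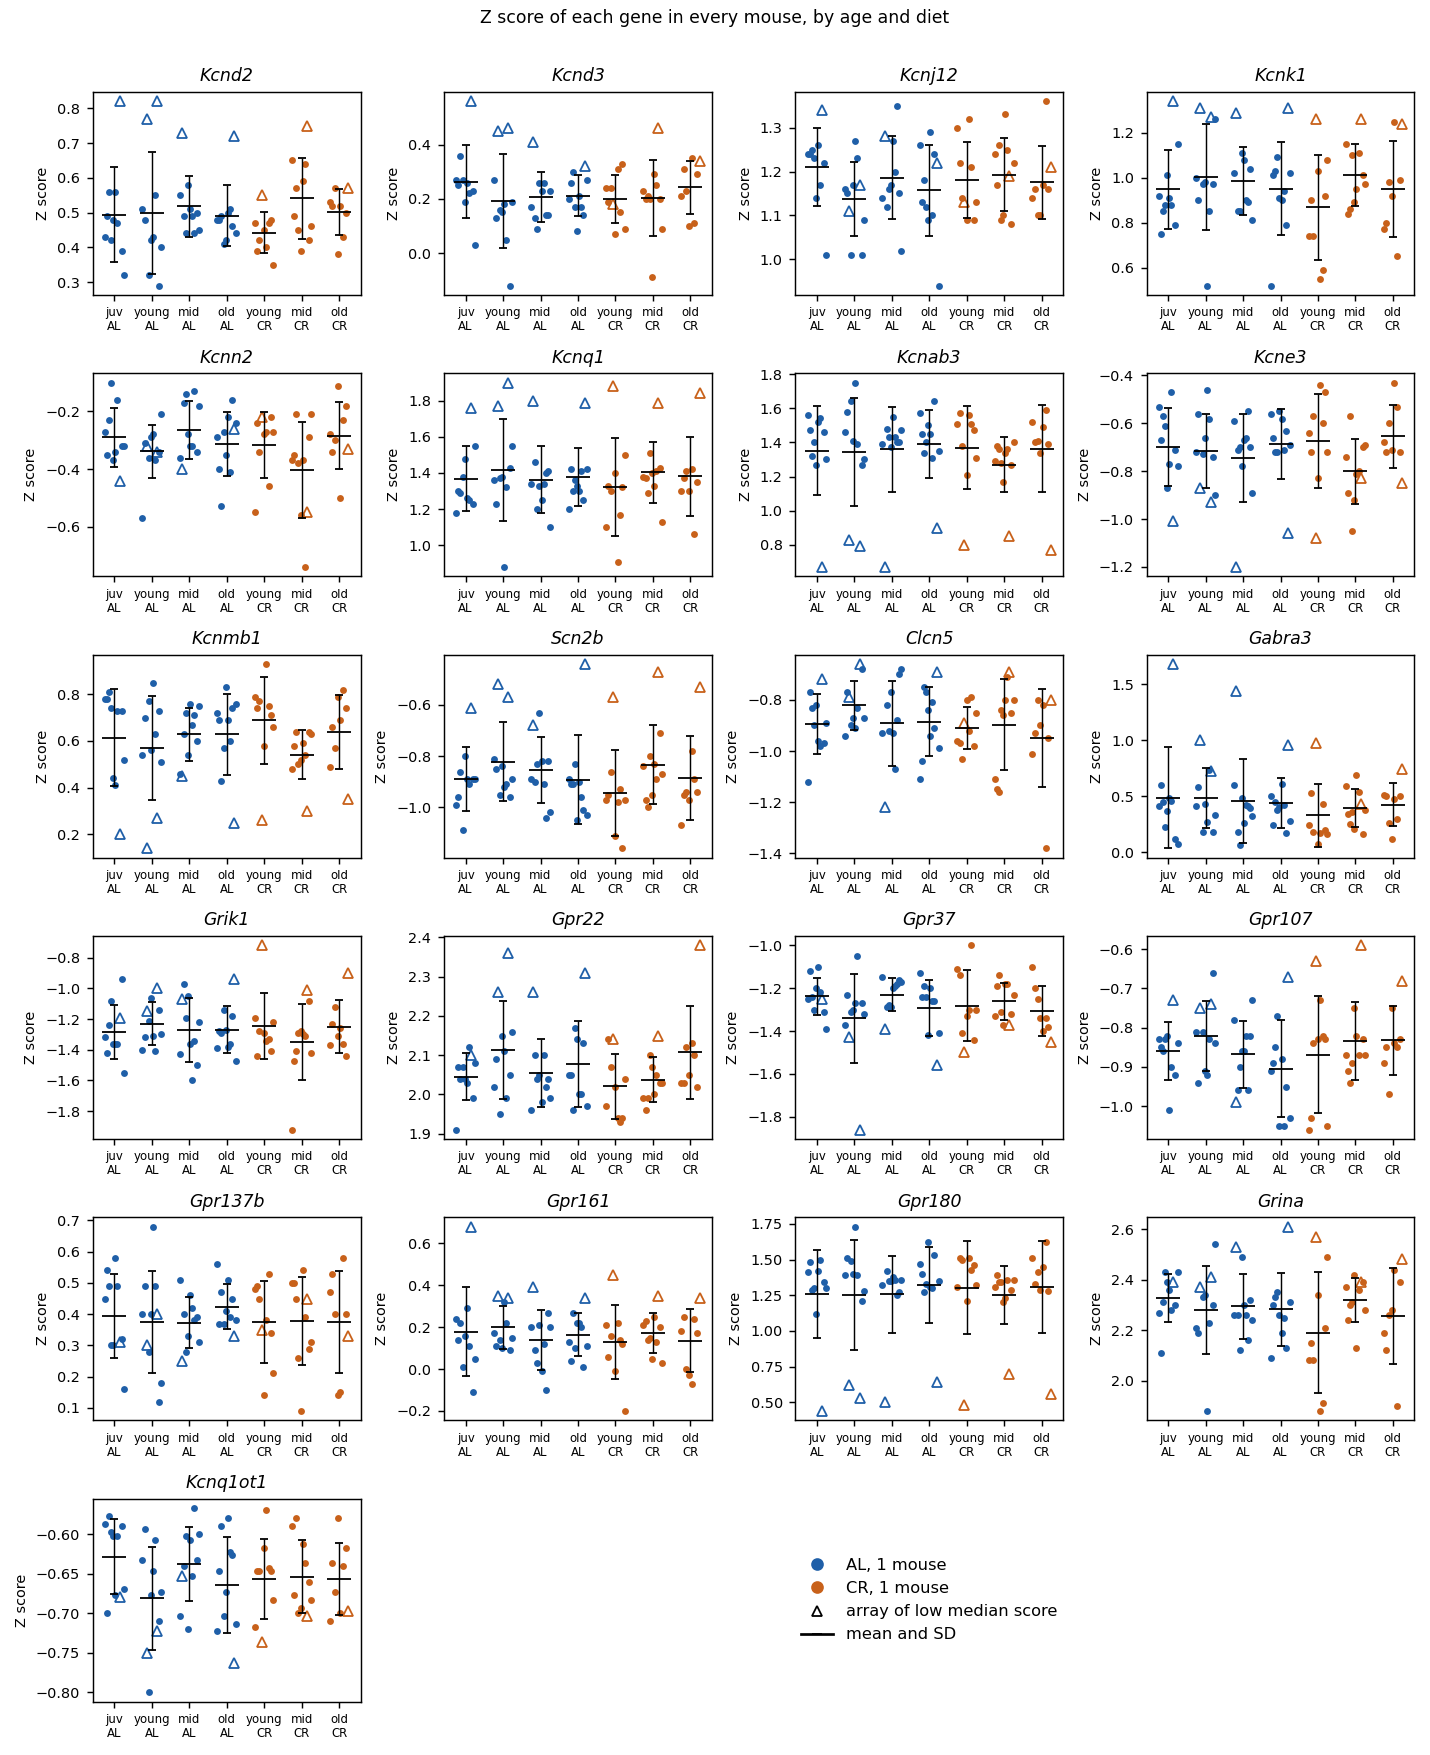
Z score (vertical axis) of each of the 21 genes in all 67 mice, by age and diet (horizontal axis; juv, juvenile; mid, middle-aged), with the mean and SD of each group; open triangles are the 8 arrays of low median score. Age and diet groups overlap for every gene, while the triangles lie apart for genes such as Gpr180 and Kcnab3.

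Of the members, 6 form the pore of a potassium channel. Kcnd2 and Kcnd3 code for A-type channels of the Kv4 family, which delay firing after a hyperpolarised period. Kcnd2 scored 0.499 ± 0.175 in young AL mice (SD, n = 10), 0.518 ± 0.0873 in middle-aged AL mice (n = 10) and 0.491 ± 0.0871 in old AL mice (n = 10), and 0.442 ± 0.0593 (n = 9), 0.541 ± 0.117 (n = 10) and 0.502 ± 0.0663 (n = 8) at the same ages on CR. The means of Kcnd3 lay between 0.192 and 0.242. The 6 adult means spanned 0.0988 for Kcnd2 and 0.0505 for Kcnd3, beside a median span of 0.0886 over all rows of the array. The SDs between mice within groups were 0.111 and 0.121. Group means vary less than single mice, so spans and SDs are not on the same footing.

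Kcnj12, a classical strong inward rectifier (Kir2.2), had the smallest SD between mice of the potassium pore genes over all arrays, though not without the 8 arrays, where Kcnd2 had 0.0712 and Kcnj12 0.0965. Its adult means ran from 1.14 in young AL to 1.19 in middle-aged CR mice, with an SD between mice of 0.0917. Kcnk1, a 2-pore-domain leak channel (TWIK-1), ranged from 0.868 in young CR to 1.01 in middle-aged CR mice, with an SD of 0.206. Kcnq1, the slowly activating voltage-gated channel known best from heart and inner ear, ranged from 1.32 in young CR to 1.42 in young AL mice, with an SD of 0.226. Kcnn2, the calcium-activated small-conductance channel SK2 that shapes the after-hyperpolarisation, had scores below the array average, from -0.403 in middle-aged CR to -0.264 in middle-aged AL mice.

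The 3 auxiliary potassium channel subunits had SDs between mice of 0.159 to 0.246. Kcnab3, a cytoplasmic beta subunit of Kv1 channels, had adult means of 1.27 to 1.39. Kcnmb1, the beta 1 subunit that raises the calcium sensitivity of BK channels, had means of 0.542 to 0.688, lowest in middle-aged CR and highest in young CR mice. Kcne3, a single-span subunit that partners Kcnq1 and other pores, had means of -0.800 in middle-aged CR to -0.655 in old CR mice.

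The sodium channel subunit Scn2b, a beta subunit that governs surface density of the channel, had adult means between -0.944 in young CR and -0.822 in young AL mice. Clcn5, an endosomal chloride-proton exchanger, lay between -0.949 in old CR and -0.822 in young AL mice. The ligand-gated receptors were represented by Gabra3, the alpha 3 subunit of the GABA-A receptor, and Grik1, the GluK1 kainate receptor subunit. Gabra3 had means of 0.328 in young CR to 0.483 in young AL mice and one of the widest spreads of the set (SD 0.271). Grik1 had means of -1.35 in middle-aged CR to -1.23 in young AL mice.

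Of the Gpr family, Gpr22, an orphan receptor of brain and heart, had means of 2.02 in young CR to 2.11 in young AL mice and an SD between mice of 0.0992. Gpr37, a receptor known from oligodendrocytes and dopaminergic neurons, had means of -1.34 to -1.23. Gpr161, a ciliary receptor of the hedgehog pathway, had means of 0.128 to 0.199, and Gpr180 had means of 1.25 to 1.32 with the largest SD of the set (0.304). Gpr107 (-0.905 to -0.821) and Gpr137b (0.373 to 0.424) code for proteins of intracellular membranes.

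Grina and Kcnq1ot1 entered through their names alone. Grina codes for a glutamate receptor-associated protein of the endoplasmic reticulum and Golgi and not for a receptor subunit. Its adult means were 2.19 in young CR to 2.32 in middle-aged CR mice. Kcnq1ot1 is a long non-coding RNA transcribed from within Kcnq1, at chromosome 7, 143213111 to 143296547, inside the 143106877 to 143427050 of Kcnq1 (GRCm38.p6). It was read by 3 cDNAs with adult mean scores of -0.758, -0.500 and -0.717, and their average had the smallest spread of any member (SD 0.0547). The spotted cDNAs do not tell strands apart, so the Kcnq1 and Kcnq1ot1 scores cannot be assigned to one strand.

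Over all members, the adult age and diet means spanned a median of 0.111 Z units (range 0.0433 to 0.155). The same median over all 7782 rows (a gene, or a feature without a gene of its own) was 0.0886. The SD between mice of one group had a median of 0.141 for the members and 0.151 for all rows, and without the 8 arrays it was 0.113 and 0.115. The members thus varied between mice about as much as the rest of the array.

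The first question was whether channel and receptor genes changed with age in AL mice. No change passed by limma at a Benjamini-Hochberg adjusted p of 0.05: of the 13 members whose mean score exceeded 0, which were the ones tested, 0 passed from young to middle age, 0 from middle to old age and 0 from young to old age. Among all 3904 rows tested the percentage that passed was 0 in each. At an unadjusted p under 0.05 the members again numbered 0 in each comparison, while 33 rows (0.845%), 13 rows (0.333%) and 12 rows (0.307%) reached it. If nothing differed, a share of about 0.05 would reach it on average, and the shares here lay below that. Rows share the same arrays and are not independent, so this alone does not show that the p-values were conservative. The cause was not tested. The old and the young AL mice overlapped for every member.

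In AL mice no member's interval left out 0. Among the 13 tested members, from young to middle age Gpr22 was lower by a difference of -0.0600 (95% confidence interval -0.153 to 0.0333), Gpr161 by -0.0590 (-0.176 to 0.0581) and Kcnq1 by -0.0560 (-0.253 to 0.141). Kcnj12 (0.0490), Kcnmb1 (0.0590) and Kcnd2 (0.0190) were higher. From middle to old age Gpr137b (0.0510), Gpr22 (0.0240) and Gpr180 (0.0660) had the smallest p-values among the higher tested members, and Kcnj12 (-0.0290), Kcnd2 (-0.0270) and Kcnk1 (-0.0320) among the lower ones. From young to old age Gpr137b differed by 0.050, Kcnmb1 by 0.0580 and Gpr180 by 0.0670, and Gpr22 by -0.0360, Gpr161 by -0.035 and Kcnk1 by -0.0510. Of the 8 members below the score filter, the smallest p-values were those of Gpr37 from young to middle age (0.111, -0.0156 to 0.238) and from middle to old age (-0.0610, -0.188 to 0.0656), and of Gpr107 from young to old age (-0.0840, -0.186 to 0.0181). With age on AL, 11 of the 21 members had a positive and 10 a negative old-minus-young difference, with a median of 0.00200 beside -0.00400 over all rows. The intervals of the members reached from -0.277 to 0.330, so larger changes than these were outside every member's interval.

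On CR the members spread further apart between young and middle age, though again 0 of 13 passed. Kcnmb1 scored from 0.260 to 0.930 (median 0.740) in the 9 young CR mice and from 0.300 to 0.640 (median 0.560) in the 10 middle-aged ones. The ranges overlapped, and every middle-aged mouse lay below the young median. The difference was -0.153 ± 0.0770 (SE, 95% confidence interval -0.308 to 0.00137, limma adjusted p = 0.893). Kcnd2 was 0.101 ± 0.0527 higher in middle-aged mice (-0.00530 to 0.206), with ranges of 0.350 to 0.550 in young and 0.390 to 0.750 in middle-aged mice. Grina differed by 0.136 ± 0.0783 (-0.0216 to 0.293) and Kcnk1 by 0.154 ± 0.0927 (-0.0317 to 0.341), and their ranges overlapped too. Kcnab3 (-0.108) and Gpr180 (-0.0640) were lower with intervals that included 0.

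Without the 8 arrays, of which 1 was a young CR and 1 a middle-aged CR mouse, the same comparison tightened. At an unadjusted p under 0.05 it held 5 of 13 members, beside 722 of 3915 rows (18.4%), where the fit to all arrays had 0 members and 85 rows (2.18%). No row passed after adjustment. Kcnmb1 was then lower by -0.169 (95% confidence interval -0.272 to -0.0663, limma adjusted p = 0.201) and Kcnab3 by -0.121 (-0.231 to -0.0102). Kcnd2 was higher by 0.0900 (0.0130 to 0.167), Grina by 0.167 (0.0203 to 0.313) and Kcnk1 by 0.170 (0.00573 to 0.335). All 5 differences had the same sign in the fit to all arrays, with wider intervals. Whether the members' share differed from that of all rows was not tested. Of the members below the score filter, Kcne3 was lower by -0.168 (-0.286 to -0.0508) and Scn2b higher by 0.123 (0.0326 to 0.213) in this fit. When arrays were instead weighted by their agreement with their group, 3 members passed after adjustment, Kcnd2, Grina and Kcnmb1, beside 625 rows (16.0%), and in old against young CR mice 2 did, Gabra3 and Grina, beside 970 rows (24.8%). One old CR mouse carried a weight of 135 in that fit, where the median was 1.26.

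**Figure D2:**
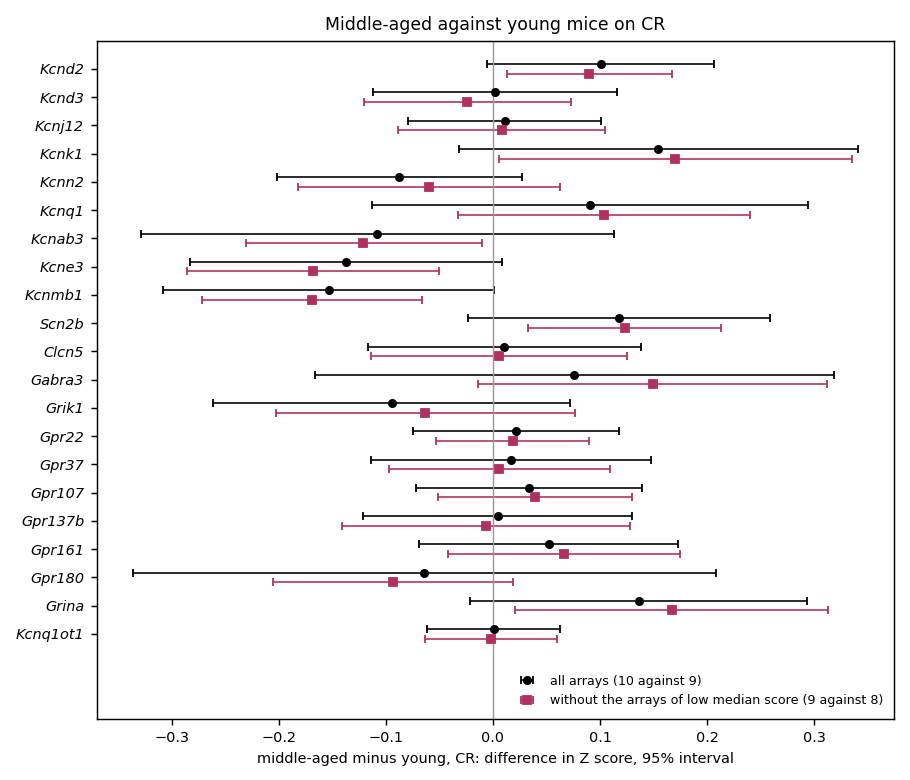
Difference in Z score between middle-aged and young CR mice (horizontal axis) with its 95% confidence interval for each of the 21 genes, from the fit to all arrays (black circles) and without the 8 arrays of low median score (red squares). Kcnmb1, Kcnab3 and Kcne3 lie to the left and Kcnd2, Kcnk1, Scn2b and Grina to the right in both fits, and their intervals leave out 0 only without the 8 arrays.

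From middle to old age on CR, 0 of 13 members passed and 0 had an unadjusted p under 0.05, where 39 rows (0.999%) did. Without the 8 arrays 2 members did, Kcnab3 (0.142, 0.0201 to 0.263) and Kcnmb1 (0.138, 0.0247 to 0.251), beside 275 rows (7.02%). Both were lower in the middle-aged CR mice than in either neighbouring age, and so was Kcne3, below the filter, which was higher in old mice by 0.166 (0.0362 to 0.295). The middle-aged CR mice enter both comparisons, so the opposite signs are not independent. Gpr22 (0.0823), Kcnmb1 (0.0963) and Kcnd3 (0.0393) were higher and Grina (-0.0617), Kcnd2 (-0.0390) and Kcnk1 (-0.0620) lower in the fit to all arrays.

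From young to old age on CR, 0 of 13 members passed, and 1 member had an unadjusted p under 0.05, Gpr22, beside 6 rows of 3904 (0.154%). Gpr22 scored 1.93 to 2.14 (median 2.02) in the 9 young CR mice and 2.02 to 2.38 (median 2.08) in the 8 old ones. The highest score belonged to old CR male replicate 3, one of the 8 arrays, and the next was 2.13. The difference was 0.104 ± 0.0515 (95% confidence interval 6.74e-04 to 0.207, limma adjusted p = 0.977). It was 0.0507 without that mouse and 0.0597 (-0.0205 to 0.140) without the 8 arrays. With all arrays and a term for the 8 in the fit it was 0.0897 (0.0171 to 0.162), and it did not pass after adjustment. Kcnd2 (0.0615) and Gabra3 (0.124) were higher and Kcnmb1 (-0.0569), Kcnab3 (-0.0372) and Gpr180 (-0.0403) lower, with intervals that included 0. Of the 21 members 14 were higher and 7 lower, with a median of 0.0360 beside -4.58e-04 over all rows.

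The second question was the response to diet. Between CR and AL mice 0 of 13 tested members passed by limma in young, middle-aged and old mice and over all ages, which does not show that the diets were equal. At an unadjusted p under 0.05 there was 1 member in young mice and 0 at each other age and over all ages, beside 19 rows (0.487%), 3 rows (0.0768%), 4 rows (0.102%) and 10 rows (0.256%). The member was Gpr22, which ranged from 1.95 to 2.36 (median 2.10) in young AL and from 1.93 to 2.14 (median 2.02) in young CR mice. The young AL group held 2 of the 8 arrays and the young CR group 1. The difference was -0.0987 ± 0.0479 (-0.195 to -0.00261, limma adjusted p = 0.850) and -0.0587 (-0.132 to 0.0145) without the 8 arrays. With a term for the 8 arrays in the fit it was -0.0771 (-0.145 to -0.00953, limma adjusted p = 0.997). The young CR mice enter this comparison and the one with age on CR, so they share these scores. The shares of rows in the 4 diet comparisons also lay far below 0.05, and the cause was not tested there either.

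Among the other members in young mice, Kcnk1 was lower on CR by -0.143 (95% confidence interval -0.330 to 0.0427) and Gabra3 by -0.164 (-0.406 to 0.0783), and Kcnmb1 was higher by 0.125 (-0.0294 to 0.280), followed by Kcnj12 (0.0448) and Gpr180 (0.0610). In middle-aged mice Kcnmb1 (-0.0870), Kcnab3 (-0.0890) and Gabra3 (-0.0610) were lower and Gpr161 (0.0340), Kcnd2 (0.0230) and Kcnq1 (0.0410) higher. In old mice Gpr22 (0.0413), Kcnj12 (0.0317) and Kcnd3 (0.0313) were higher and Gpr137b (-0.0367), Kcnab3 (-0.0500) and Gpr180 (-0.0463) lower. No interval among these left out 0 in the fit to all arrays. Without the 8 arrays that of Kcnab3 in middle-aged mice did (-0.115, -0.222 to -0.00689, limma adjusted p = 1.00), the only tested member there beside 32 rows (0.817%).

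The average over the 3 ages gave the tightest bounds on diet. Kcnj12 differed by 0.0278 (-0.0246 to 0.0802), Kcnd3 by 0.0131 and Kcnmb1 by 0.0162, and Gabra3 by -0.0744 (-0.215 to 0.0664), Gpr22 by -0.0248 (-0.0807 to 0.0311) and Grina by -0.0321 (-0.124 to 0.0593). Over the 21 members 7 were higher and 14 lower on CR, with a median of -0.0163 beside 7.57e-04 over all rows. The lowest bound of any member's interval was -0.215 and the highest 0.161. The median interval reached 0.0759 to either side.

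The SK2 gene Kcnn2 lay below the score filter and was therefore not among the 13 tested members. In middle-aged mice it scored -0.40 to -0.130 (median -0.300) on AL and -0.740 to -0.210 (median -0.370) on CR. The ranges overlapped. Fitted with no filter, the difference was -0.139 ± 0.0554 (95% confidence interval -0.250 to -0.0276, limma adjusted p = 1.00), and 31 of 7782 rows (0.398%) reached an unadjusted p under 0.05 there. It lay between -0.167 and -0.101 when any 1 array was left out, the latter without middle CR male replicate 2. It was -0.141 without the 8 arrays and -0.0870 after a correction for position. That correction used the order of features and no coordinates of spots. It subtracted a running median, over 99 neighbouring features, of each array's deviations from the median array. From middle to old age on CR, Kcnn2 was higher by 0.127 ± 0.0599 (0.00634 to 0.247) with no filter, where 127 rows (1.63%) reached the same threshold, and Kcne3 by 0.136 ± 0.0761 (-0.0168 to 0.289). From young to middle age on CR, Kcne3 was lower by -0.137 ± 0.0726 (-0.283 to 0.00860). In young mice Scn2b was lower on CR by -0.129 ± 0.0703 (-0.270 to 0.0122). None of these had an adjusted p below 0.922 with no filter.

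With no filter and the correction for position, Grina in middle-aged against young CR mice (0.132 ± 0.0624, 95% confidence interval 0.00656 to 0.257) had the smallest p-value of any member, followed by Scn2b in young CR against young AL mice (-0.140 ± 0.0698, -0.280 to 6.15e-04). Kcnk1 (0.148) and Kcne3 (-0.0927) in the first of these comparisons, Gpr161 (-0.0755) and Kcnk1 (-0.137) in the second, Gpr37 from young to middle age on AL (0.101) and Gpr137b from middle to old age on AL (0.0620) were also among the 5 with the smallest p-values in their direction, as was Kcnn2 in middle-aged CR against AL mice (-0.0870). None passed after adjustment.

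Whether the change with age differed between the diets was tested as an interaction, the change from young to old age on CR minus that on AL. Of 13 members 0 passed, and 1 had an unadjusted p under 0.05, beside 7 rows (0.179%). Gpr22 was higher with age on CR by 0.104 and lower on AL by -0.0360, and the interaction was 0.140 ± 0.0693 (95% confidence interval 8.24e-04 to 0.279, limma adjusted p = 0.917). It was 0.0752 (-0.0322 to 0.183) without the 8 arrays and 0.0867 without old CR male replicate 3. With a term for the 8 arrays in the fit it was 0.104 (0.00600 to 0.202, limma adjusted p = 0.999). It reuses the young CR and old CR mice of the comparisons above. Kcnk1 (0.143), Gabra3 (0.166) and, without the score filter, Scn2b (0.161 after the correction for position) had positive interactions, and Kcnmb1 (-0.115), Gpr180 (-0.107) and Kcnab3 (-0.0862) negative ones, with intervals that included 0.

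Females and males were compared over the 6 age and diet groups. Of 13 members 0 passed and 0 had an unadjusted p under 0.05, beside 7 rows (0.179%). Grina (0.0335), Gpr180 (0.0424) and Kcnq1 (0.0187) were higher in females, and Kcnj12 (-0.0371), Kcnmb1 (-0.0469) and Gpr137b (-0.0219) lower. The X-linked members Gabra3 and Clcn5 differed by 0.0164 (95% confidence interval -0.124 to 0.157) and -0.0543 (-0.128 to 0.0197). Kcnmb1 was lower in females by -0.0727 (-0.134 to -0.0112, limma adjusted p = 0.999) without the 8 arrays, where 69 rows (1.76%) reached p under 0.05.

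**Figure D3:**
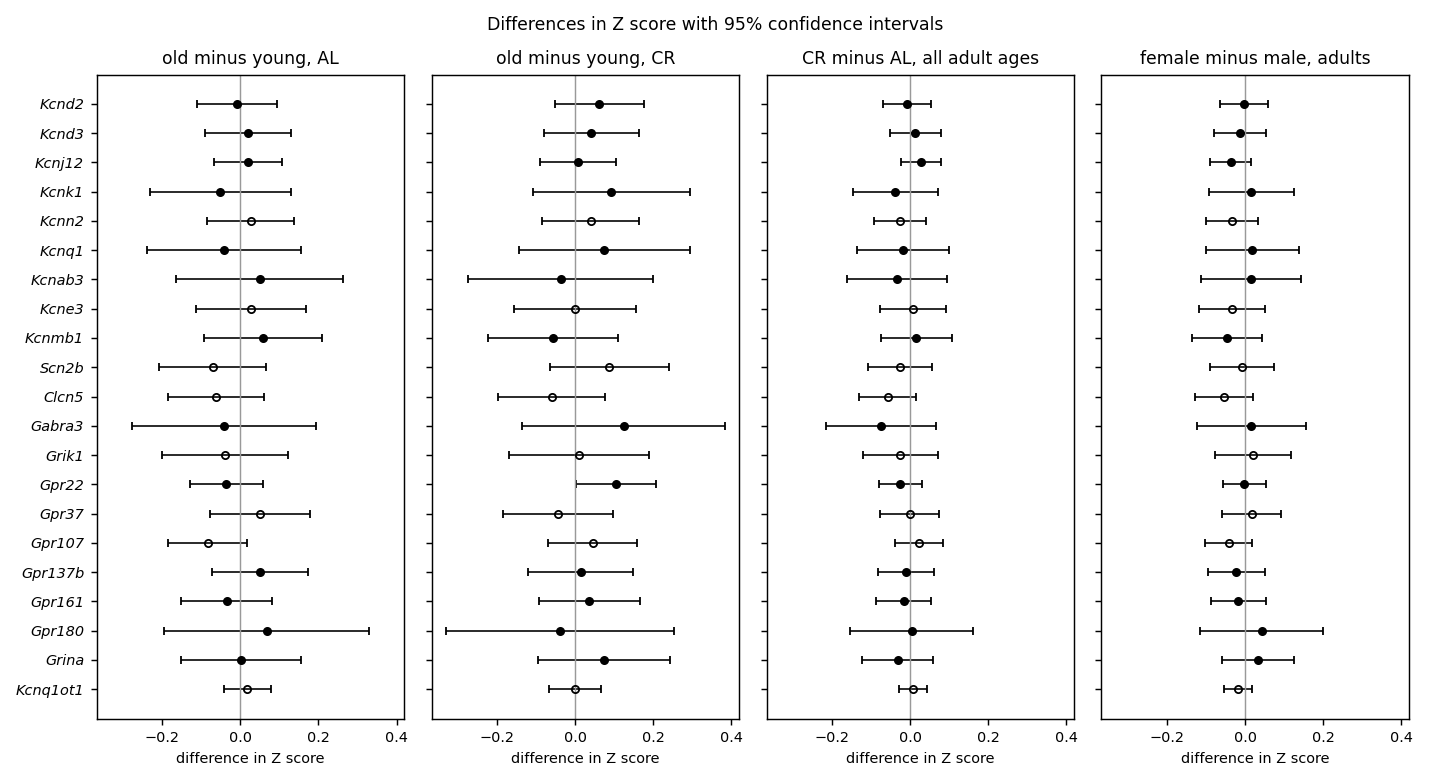
Differences in Z score (horizontal axis) with 95% confidence intervals for the 21 genes: old minus young on AL, old minus young on CR, CR minus AL over all adult ages, and female minus male. Filled points are the 13 genes tested and open points the 8 below the score filter; the only interval that leaves out 0 is that of Gpr22 on CR (0.104).

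Juvenile mice extended the age range downwards. From juvenile to young adult AL mice 0 of 13 members passed and 0 had an unadjusted p under 0.05, beside 17 of 3892 rows (0.437%). Of the tested members Gpr22 was 0.0690 higher in the young adults (-0.0377 to 0.176), followed by Kcnk1 (0.0550) and Kcnq1 (0.0510). Kcnj12 was lower by -0.0730 (-0.172 to 0.0262), followed by Kcnd3 (-0.0720) and Grina (-0.0470). Below the filter, Clcn5 differed by 0.0740 (-0.0368 to 0.185) and Gpr37 by -0.103 (-0.256 to 0.0498). Among the juveniles themselves, mice of 33 days or more were compared with those of 21 days or less, with 0 of 13 members passing or reaching an unadjusted p under 0.05, beside 32 of 3893 rows (0.822%). Gabra3 had the largest difference of any member in any comparison, -0.378, with an interval of -0.892 to 0.137. It was -0.0346 (-0.254 to 0.185) without juvenile male replicate 3, the single one of the 8 arrays in this group, in which Gabra3 scored 1.68 against 0.0700 to 0.600 in the other 9 juveniles. Gpr180 (0.167) and Kcnab3 (0.137) changed sign without that mouse, to -0.0872 and -0.0733. Grina was higher in late juveniles by 0.0958, and Kcnd3 (-0.144) and Kcnj12 (-0.0958) lower. Without that mouse Kcnmb1 was lower in late juveniles by -0.191 (-0.368 to -0.0138, limma adjusted p = 0.833), the only tested member at an unadjusted p under 0.05 there beside 167 rows (4.29%).

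The 8 arrays set much of the spread of these genes. Gpr180 scored 0.440 to 0.700 (median 0.545) in the 8 arrays and 1.12 to 1.73 (median 1.36) in the 59 others, with no overlap. Kcnab3 scored 0.670 to 0.90 against 1.17 to 1.75, again with no overlap. In the other direction Kcnq1 scored 1.76 to 1.90 against 0.880 to 1.55 and Gpr161 0.340 to 0.680 against -0.20 to 0.320. These 4 members, 2 above and 2 below, stand beside 12.6% of all rows that lay wholly above and 12.5% that lay wholly below, so the members' 2 of 21 in each direction was close to the array as a whole. Gabra3 (mean difference 0.636), Kcnmb1 (-0.382), Scn2b (0.368), Kcnk1 (0.367), Grik1 (0.312) and Kcne3 (-0.302) also shifted, with ranges that overlapped. The median absolute shift was 0.247 for the members and 0.246 for all rows. Kcnj12 (0.0332), Kcnn2 (-0.0465), Gpr137b (-0.0512) and Kcnq1ot1 (-0.0674) shifted least. Since these arrays were picked by a property of their own scores, the shifts are a description and were not tested.

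**Figure D4:**
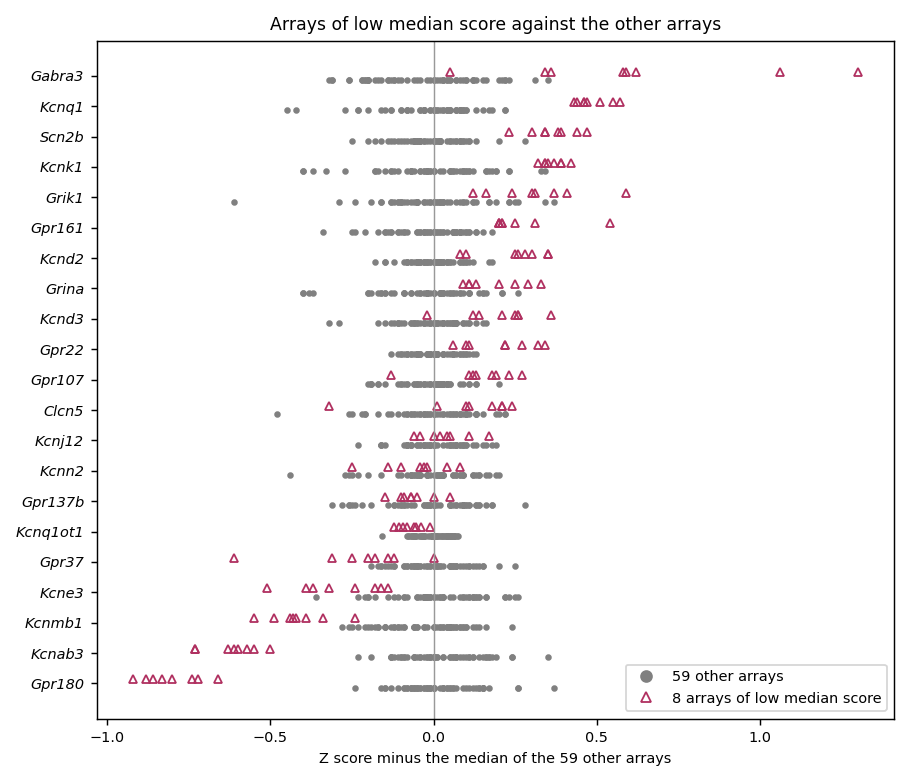
Z score of each gene in the 8 arrays of low median score (red triangles) and the 59 other arrays (grey points), minus the median of the 59 (horizontal axis). Triangles lie wholly to the left for Gpr180 and Kcnab3, wholly to the right for Kcnq1 and Gpr161, and among the grey points for Kcnj12 and Kcnn2.

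Within a gene the SDs between mice fell accordingly without the 8 arrays, for Gpr180 from 0.304 to 0.115, for Kcnab3 from 0.246 to 0.113, for Kcnmb1 from 0.169 to 0.104 and for Gabra3 from 0.271 to 0.175. Kcnj12 (0.0917 and 0.0965) and Kcnn2 (0.122 and 0.126) kept theirs.

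Other genes of the pathway were followed from 3 lists. Of 29 postsynaptic scaffold genes 5 were on the array and 2 tested, of 69 genes of receptor signalling 24 were on the array and 10 tested, and of 24 genes of transmitter synthesis and uptake 3 were on the array and 0 tested. None passed in any of the 14 comparisons. At an unadjusted p under 0.05 the only one was Camk2d, a subunit of calcium/calmodulin-dependent kinase 2, in old against middle-aged CR mice. Median differences ran from -0.0760 to 0.0653 for the scaffold genes, which include Homer2, Baiap2 and Dlg1, and from -0.0397 to 0.0403 for receptor signalling, which includes the G protein subunits Gnai1, Gnai2 and Gnaq and the calcineurin subunit Ppp3ca. Among markers of other cells, astrocytes had 7 genes on the array, microglia 3, blood 3 and oligodendrocytes 1 (Car2), and none passed in any comparison. At an unadjusted p under 0.05 there were the astrocyte gene Cst3, higher in old than young AL mice, and the microglial gene C1qc, higher in old than middle-aged CR mice. Of the striatal neuron markers, Rasd2 was there on CR in young mice and over all ages and Meis2 in young adults against juveniles, each higher. The list as a whole did not follow them throughout. On CR 3 of its 7 genes were higher in young mice (median -0.00825) and 6 over all ages (median 0.0370). In young adults against juveniles 3 of 7 were higher (median -0.0290). From middle to old age on AL, 7 of 7 astrocyte markers (median 0.0590) and 3 of 3 microglial ones (median 0.0560) had positive differences. From young to middle age on AL it was 3 of 7 (median -0.0310) and 0 of 3 (median -0.0490). Over the whole span from young to old age it was 4 of 7 and 2 of 3 on AL, and 4 of 7 and 3 of 3 on CR. The part of these markers in the members' values was not tested.

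A pairwise rule taken from the study's methods, applied without their further analysis of variance, asks for a positive mean score, a Z-ratio beyond 1.5 in either direction and an unadjusted p under 0.05. It called 1 member in 13 comparisons. The member was Kcnmb1 in middle-aged against young CR mice, with means of 0.542 and 0.688, a difference of -0.146 and a Z-ratio of -2.05. The rule called 58 of 3913 rows (1.48%) in that comparison, and 0 of them passed after Benjamini-Hochberg adjustment. Elsewhere the rule called no member, beside 0.514%, 0.565% and 0.282% of rows from young to middle, middle to old and young to old age on AL and 0.922% and 0% from middle to old and young to old age on CR. For diet the shares were 0.128% in young, 0.258% in middle-aged and 0.0255% in old mice and 0.307% over all ages, for sex 0.128%, and in the young adult and juvenile comparisons 0.565% and 0.874%.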

How the data were processed

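Deposited values were Z scores of nylon filters hybridised with radiolabelled cDNA, 1 column per array. According to the study's methods, signals were extracted with ArrayPro and the authors applied a Z score transformation, so each deposited score is relative to its own array. Background treatment, log base and intensities are not given in the sources used here, and depth does not apply to arrays, whose number limits the precision. Symbols came from a platform annotation table (4875 features with 1 symbol, 224 with several, 3349 with none); all 23 member features matched RefSeq GRCm38.p6.

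Columns 66 and 67 were turned end to end and features averaged per gene (7782 rows). limma 3.58.1 in R 4.3.3 was fitted with a mean for each of 12 adult groups (57 arrays), with sexes weighted equally, and separately for maturation (20 arrays) and juveniles (10 arrays, with sex as a term). Rows with a mean score above 0 were tested (3904, 3892 and 3893), at a Benjamini-Hochberg adjusted p of 0.05. Intervals are unadjusted 95% confidence intervals. Estimates for members below the filter came from the fit to all rows. The fit was also run on simulated data. The outcome is not given here, so no conclusion about the p-values of these arrays is drawn from that run. Named genes were members that passed or else the 3 with the smallest p in each direction per comparison, and the 5 smallest in each direction over all comparisons with no filter. Members and lists were chosen with earlier results of these data known.

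The largest correlation between arrays was 0.993, so no column was a copy of another. This does not exclude repeat filters of the same RNA. Arrays were deposited in 5 runs of title numbers that start with a juvenile male, and the methods state balanced batches. Arrays of the same run deviated together, with a mean correlation of deviations from group means of 0.101 to 0.300 within runs and -0.0557 to -0.00319 between them. The run as a replicate block changed no call. Alternatives covered normalization, centring, filter, position in the order of features, array weights, the 8 and the 2 arrays named in the text, and leaving out each array. Sequences of the spotted cDNAs were not used here.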

Additional observations from a re-analysis of the deposited data

Results flagged for a closer look

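Within each age and diet group of 8 to 10 mice, a gene was listed when its highest or lowest mouse lay far from the nearest other one by Dixon's criterion, which chance alone meets in about 1 of 20 groups. Of 147 sets examined, each 1 gene in 1 group, 37 had such a mouse, and 31 of them lay in the 8 arrays of low median score. The sets share the same arrays and are not independent. The count was not made over all rows, so it says nothing particular to the members. Over all rows, 12.6% lay wholly above and 12.5% wholly below in the 8 arrays.

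Gpr180 was lowest in juvenile AL male replicate 3 (0.440), middle AL female replicate 2 (0.50), old AL male replicate 4 (0.640), young CR female replicate 4 (0.480), middle CR male replicate 3 (0.700) and old CR male replicate 3 (0.560). The same 6 mice were lowest for Kcnab3, in that order at 0.670, 0.670, 0.90, 0.800, 0.850 and 0.770. In juvenile AL male replicate 3, Gabra3 (1.68), Gpr161 (0.680) and Kcnd2 (0.820) stood high. In middle AL female replicate 2, Gabra3 (1.44), Gpr22 (2.26), Kcnd2 (0.730), Kcnd3 (0.410) and Kcnq1 (1.80) stood high and Kcne3 (-1.20) low.

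In old AL male replicate 4, Grina (2.61), Kcnd2 (0.720), Kcnq1 (1.79) and Scn2b (-0.440) stood high and Kcne3 (-1.06) low. In old CR male replicate 3, Gpr22 (2.38) and Kcnq1 (1.84) stood high. Kcnmb1 was low in middle CR male replicate 3 (0.300), Grik1 high in young CR female replicate 4 (-0.720) and Gpr37 low in young AL male replicate 3 (-1.86).

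The other 6 lay in arrays of ordinary median score. Clcn5 was low (-1.38) and Kcnj12 high (1.36) in old CR male replicate 1, Grik1 was low in middle CR female replicate 1 (-1.92), Grina was low in juvenile AL female replicate 2 (2.11) and young AL male replicate 1 (1.88), and Kcnn2 was low in young AL female replicate 1 (-0.570).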

How the results depend on the processing

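The number of members passing the adjusted threshold stayed at 0 in all 14 comparisons under quantile normalization, median centring, no filter, leaving out the 8 arrays, a term for them, the correction for position, single features as rows and leaving out any 1 array. It also stayed at 0 in the 12 adult comparisons with the 2 columns as deposited or left out and in fits to the compared groups alone, which were not run for the juveniles. With the run of title numbers as a replicate block it was 0 as well, although the rows at an unadjusted p under 0.05 went from 85 to 165 in middle-aged against young CR mice (members from 0 to 2, Kcnd2 and Kcnmb1), from 17 to 184 in young adults against juveniles and from 32 to 3 in late against early juveniles. Array weights gave 3 members in middle-aged against young CR mice (Kcnd2 0.113, Grina 0.153 and Kcnmb1 -0.175, among 625 rows or 16.0%) and 2 in old against young CR mice (Gabra3 0.198 and Grina 0.155, among 970 rows or 24.8%). In the adult fit those weights ran from 0.0801 to 135, the highest for old CR male replicate 2, and the cause was not tested. By the pairwise rule of the methods 1 member passed (Kcnmb1, middle-aged against young CR) and 0 after adjustment, and the rule was not run for the interaction, which has no pair of groups. Median differences over the 21 members moved by less than the SD between mice (0.124) under every alternative. They lay between -0.0703 and 0.0735 when any 1 array was left out. That limit is wide beside the medians, so staying within it does not show that they were stable. From middle to old age on AL the median went from -0.00100 to -0.0550 with the 2 columns as deposited. Of 1160 values of single genes under other settings 1091 kept their sign and side of the threshold, leaving out each array apart. For Gpr22 the replicate block gave 0.111 (0.0124 to 0.209) in old against young CR and -0.0987 (-0.190 to -0.00743) in young CR against AL. It gave 0.147 (0.0145 to 0.279) in the interaction. Under quantile normalization no member reached an unadjusted limma p under 0.05 in these comparisons.

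The sign of a named difference, none of which passed, changed as follows, and the cause was not tested. With the 2 columns left in the order as deposited it changed in old against middle AL for Gpr137b (-0.195), Gpr22 (-0.525), Gpr180 (-0.255) and Kcnd2 (0.111), in old against young AL for Gpr137b (-0.196), Kcnmb1 (-0.285), Gpr180 (-0.254) and Gpr161 (0.0630), and in old CR against AL for Kcnd3 (-0.0717), Gpr137b (0.209), Kcnab3 (0.182) and Gpr180 (0.275). It also changed there in CR against AL over all ages for Kcnd3 (-0.0212), Gpr22 (0.158) and Grina (0.0689) and in the interaction for Gabra3 (-0.00133), Kcnmb1 (0.228), Gpr180 (0.214), Kcnab3 (0.146) and Scn2b (-0.160). Without the 8 arrays it changed in middle against young AL for Kcnmb1 (-0.0185) and Kcnq1 (0.00125), in old against young AL for Gpr180 (-0.0298), in old against young CR for Kcnab3 (0.0210) and Gpr180 (0.0177), in young CR against AL for Gpr180 (-0.0187) and in middle CR against AL for Gabra3 (0.0512). It also changed there in old CR against AL for Kcnab3 (0.0162) and Gpr180 (0.0288), in the interaction for Gpr180 (0.0475) and Kcnab3 (0.0512), in young adults against juveniles for Kcnq1 (-0.00925) and in late against early juveniles for Gpr180 (-0.0872) and Kcnab3 (-0.0733). With a term for the 8 arrays it changed for Gpr180 in old against young AL (-0.0142), old against young CR (0.0138), young CR against AL (-0.0202), old CR against AL (0.00778), the interaction (0.0280), females against males (-0.00265) and late against early juveniles (-0.0872), and for Kcnab3 in old against young CR (0.00495), the interaction (0.0192) and late against early juveniles (-0.0733). With the correction for position, with or without the filter, it changed for Kcnd2 in middle against young AL (-0.00700), Gpr22 in old against middle AL (-0.00800), Gpr180 in old CR against AL (0.00200) and Kcnd3 in CR against AL over all ages (-8.33e-04). Without the 2 turned arrays it changed for Kcnj12 in old against middle AL (0.00650) and old CR against AL (-0.00383). With array weights it changed for Kcnmb1 in middle against young AL (-0.00274), Grina in old against middle CR (0.00191), Gabra3 in middle CR against AL (0.0334), Gpr22 (-3.78e-04) and Kcnab3 (0.00353) in old CR against AL, Grina (-0.0288), Kcnq1 (-6.61e-04) and Gpr137b (0.0285) in females against males, and Gpr180 (-0.106) and Kcnab3 (-0.0971) in late against early juveniles. With the replicate block it changed for Kcnd3 in late against early juveniles (0.00286).

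Leaving out each array in turn let the sign change over these ranges: in middle against young AL for Kcnd2 (-0.00700 to 0.0593) and Kcnq1 (-0.123 to 0.00450), in old against middle AL for Gpr22 (-0.00450 to 0.0462), Gpr180 (-0.0200 to 0.139) and Kcnk1 (-0.0718 to 0.0170), and in old against young AL for Gpr180 (-0.0202 to 0.140). On CR this held in old against middle for Grina (-0.117 to 0.0275) and Kcnk1 (-0.132 to 0.0155) and in old against young for Kcnmb1 (-0.103 to 0.0148), Kcnab3 (-0.122 to 0.0827) and Gpr180 (-0.157 to 0.108). For diet it held in young CR against AL for Gpr180 (-0.0262 to 0.151), in middle CR against AL for Kcnq1 (-0.00550 to 0.0878) and Gabra3 (-0.122 to 0.050), in old CR against AL for Gpr22 (-0.0120 to 0.0780), Kcnab3 (-0.135 to 0.0700) and Gpr180 (-0.163 to 0.102), and over all ages for Kcnmb1 (-5.56e-04 to 0.0401). In the interaction it held for Gpr180 (-0.224 to 0.0410) and Kcnab3 (-0.171 to 0.0337), in females against males for Gpr180 (-0.00700 to 0.0813) and Kcnq1 (-0.0110 to 0.0540), in young adults against juveniles for Kcnq1 (-0.00950 to 0.118) and Grina (-0.0805 to 0.00200), and in late against early juveniles for Gpr180 (-0.0872 to 0.282) and Kcnab3 (-0.0733 to 0.231). The number of mice and the missing intensities limit how small a difference could be seen, and signal over background could not be judged from Z scores.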
